A study of Homo sapiens with 12 samples.

Results

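The response of 501Mel cells to resveratrol (RSV) alone was measured by RNA-Seq in 4 of the 12 libraries of the series. The line, 501Mel, is established from human melanoma. The 2 RSV libraries came from cells exposed to 5 μM RSV for 48 h, and the 2 vehicle libraries from cells exposed to DMSO for 48 h. They were chosen by their labels and not by any measured value. All groups share the cell line, the medium with fetal bovine serum and the 48 h of exposure. The other 8 libraries, from cells given Vemurafenib (Vem, 1 μM) or TCDD (10 nM) with or without 5 μM RSV, entered the model fit, and serve below only to show where the RSV effect differed in their presence. For RSV+TCDD the sample labels state 1 nM TCDD, whereas the treatment protocol states 10 nM. Of 56638 gene symbols in the table, 16080 had enough counts to be tested. Nothing in the labels says that the 2 libraries of a group came from separate cultures. The p-values set a difference against the spread between replicate libraries, estimated over all 12 libraries, and that spread may be technical.

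RSV is a plant stilbene that binds the aryl hydrocarbon receptor (AhR), a ligand-activated transcription factor. Ligands such as TCDD release AhR from its cytoplasmic chaperones, and AhR then pairs with ARNT at xenobiotic response elements and raises CYP1A1 and other genes of xenobiotic metabolism. The study used RSV as an antagonist of this pathway, and RSV is also widely described as acting on sirtuins, on antioxidant genes and on mitochondria. Melanoma cells of the melanocytic type carry the program of pigment cells, in which MITF and SOX10 drive the enzymes and matrix proteins of the melanosome.

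Genes received 19841435 and 25076925 counts with vehicle and 15375956 and 18168534 with RSV, with RIN values between 9.2 and 9.6. Replicates were further apart than counting noise allows, since chi-square divided by its degrees of freedom was 23.4 between the vehicle libraries and 13.4 between the RSV libraries. The mitochondrially encoded share of counts was 5.09% and 6.16% with vehicle and 7.66% and 8.25% with RSV, and its part in the results was not tested. The 7 melanocytic markers (PMEL, MLANA, TYR, TYRP1, DCT, SOX10 and MITF) summed to 20476 and 19378 CPM (counts scaled to library size with TMM factors) with vehicle. With RSV they summed to 11108 and 12304, and none was at 0 in any library. Keratinocyte markers summed to between 14.4 and 20.2 CPM, and fibroblast markers to 17.7 and 14.3 with vehicle and 15.9 and 19.2 with RSV. Leukocyte markers summed to 0.506 and 0.324 CPM with vehicle and 3.50 and 4.10 with RSV, and 2 of the 6 passed the filter on low counts, LYZ and CD68. Endothelial markers summed to 0.658 and 0.324 CPM with vehicle and 1.39 and 1.31 with RSV. Of these other lists, LYZ, CD68, the endothelial VWF (1.99) and the fibroblast marker PDGFRA (2.69) were called higher, and their part in the results was not tested. In bulk RNA, a loss of cells of a given state and a lower level per cell cannot be told apart.

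At an adjusted p below 0.05, 6538 of 16080 genes (40.7%) differed between RSV and vehicle, with 3295 higher (20.5%) and 3243 lower (20.2%). Adjusted p-values are those of the quasi-likelihood test in edgeR after Benjamini-Hochberg adjustment over all tested genes, "called" refers to them, and SE is the standard error of a log2 fold change. Of the higher genes, 1189 had an absolute log2 fold change above 1, against 481 of the lower genes, and the median change was 0.74 in the former and -0.58 in the latter. The values of both groups did not overlap in 67.9% of all tested genes. With scaling to the ERCC spike-ins 256 genes were called higher and 113 lower, and the median log2 fold change over all genes moved by -0.17. The spike-ins held between 0.0310% and 0.0413% of the counts in these 4 libraries. In other groups of the fit the replicates were further apart, with 0.0389% and 0.0903% in RSV+Vem and 0.0630% and 0.0936% in RSV+TCDD. Why calls were lost in both directions was not tested. A test against an absolute log2 fold change of 1 left 291 higher and 51 lower genes. When each of the 4 libraries was left out in turn, 3441 genes (52.6%) were called the same way every time, 1707 of them higher and 1734 lower. In a fit to the 4 libraries alone, 5181 (79.2%) were called the same way.

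**Figure D1:**
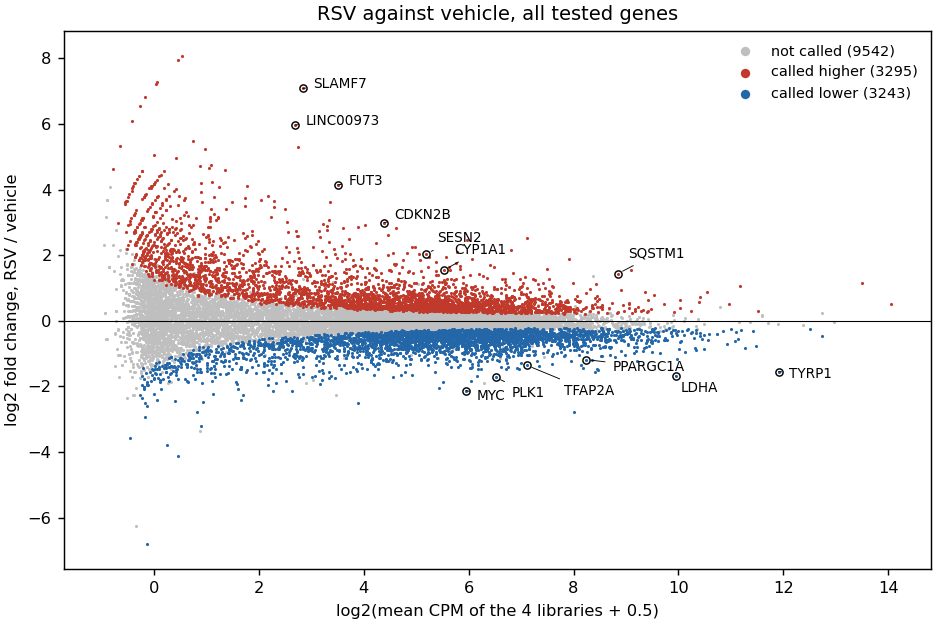
Log2 fold change of RSV over vehicle (y axis) against the log2 of the mean CPM of the 4 libraries plus 0.5 (x axis), 1 point per tested gene, coloured by call. The 3295 genes called higher reach further from 0 than the 3243 called lower, and the circles mark genes described in the text.

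The largest increase among called genes with a mean of 50 or more counts with RSV was in SLAMF7, a receptor of the SLAM family best known from lymphocytes and plasma cells, located at chr1:160708847-160724611 of GRCh37, plus strand. It had 3 and 1 counts in the vehicle libraries and 226 and 243 with RSV. The RSV libraries lay close together and far above vehicle. Against a floor of 3 counts per vehicle library the level was at least 96.6-fold higher (edgeR adjusted p = 1.89e-09). Of the 9 other members of the SLAM family list, 3 were tested and none was called. LINC00973, a long non-coding RNA, went from 0.202 and 0.162 CPM to 15.4 and 8.14 CPM, a log2 fold change of 5.97 (SE 0.41). IL11, a cytokine of the interleukin-6 family, went from 2 and 1 counts to 59 and 41 counts and was at least 20.9-fold higher. HSD3B2, an enzyme of steroid hormone synthesis, went from 3 and 2 counts to 53 and 55 counts and was at least 22.3-fold higher. In all of these the groups were well apart. A gene near 0 with vehicle that passes the filter through libraries with RSV can only be called higher. The folds and the p-value of these genes are therefore a description. With a minimum of 10 counts in every library, 0 of the 10 largest increases were called.

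FUT3, a fucosyltransferase of Lewis antigen synthesis, had 1.37 and 0.971 CPM with vehicle and 23.1 and 17.9 CPM with RSV, a log2 fold change of 4.14 (SE 0.25). HCP5, a non-coding RNA of the MHC region, rose by 4.74, GPR116 by 4.10 and INHBE, an activin subunit gene of the TGF-beta family, by 4.23. ASNSP1 rose by 4.58. It is a pseudogene of the asparagine synthetase gene ASNS, which was itself called higher at 1.64, and the authors' counting could have split reads between them. The immediate early gene ARC had 0.506 and 0.121 CPM with vehicle and 20.6 and 3.68 CPM with RSV, so that RSV replicate 1 was far above RSV replicate 2. Its log2 fold change of 5.31 (SE 1.19) was 3.61 without RSV replicate 1. ARC was not called in the fit of the 4 libraries alone (adjusted p = 0.165, edgeR).

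MYC, a transcription factor that drives growth and ribosome production, was among the 10 largest decreases and was called in every fit that left out a library. It had 103 and 96.7 CPM with vehicle and 26.6 and 19.2 CPM with RSV. The groups were far apart, and the log2 fold change was -2.12 (SE 0.13, edgeR adjusted p = 4.56e-09). The small nucleolar RNA gene SNORD17 fell from 4.66 and 4.49 CPM to 1.03 and 0.893 CPM. The non-coding genes RP11-395P17.3, RP11-80F22.9 and RP11-418J17.3 fell by 2.23, 2.14 and 2.14 on the log2 scale. Another 4 of the 10 largest decreases were TMEM45A, APOLD1, GCSAML and MIR210HG, the host transcript of a hypoxia-regulated microRNA. In each of them vehicle replicate 1 was more than 2-fold above vehicle replicate 2. APOLD1 had 640 and 254 CPM with vehicle and 59.1 and 72.1 CPM with RSV. None of these 4 was called in the fit of the 4 libraries alone (adjusted p between 0.109 and 0.193, edgeR). Without vehicle replicate 1 their log2 fold changes were between -1.96 and -1.15, and TMEM45A was then not called.

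**Figure D2:**
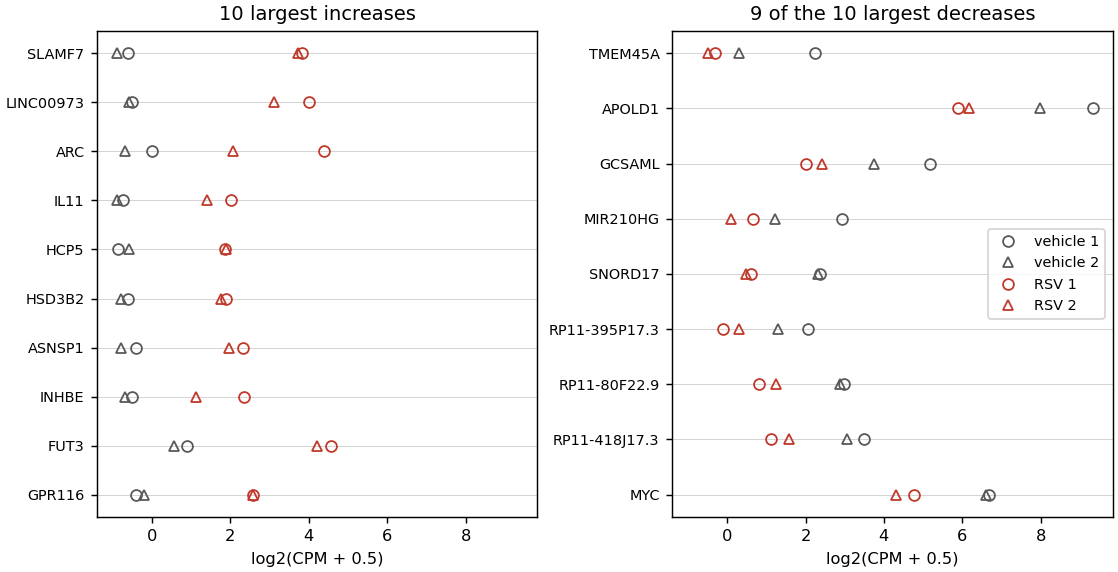
Level in each library, as log2(CPM + 0.5), of the 10 largest increases (left) and 9 of the 10 largest decreases (right) with RSV among called genes whose groups did not overlap and whose higher group had 50 or more counts on average. Circles are replicate 1 and triangles replicate 2, grey for vehicle and red for RSV; vehicle replicate 1 lies well above vehicle replicate 2 in TMEM45A, APOLD1, GCSAML and MIR210HG, and RSV replicate 1 above RSV replicate 2 in ARC.

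The AhR pathway is read first, since RSV is an AhR ligand. AhR with ARNT binds the core letters GCGTG, and the promoters below show where these letters stand in a gene that rose with RSV (CYP1A1), a classical target that was not called (NQO1), and pigmentation genes that fell (OCA2 and TYR). Sequences are from RefSeq on GRCh38.p14, a later build than that of the counts, and run 5′ to 3′ from 250 bases before to 50 bases after the start of the gene. Capitals mark GCGTG or its reverse complement CACGC.
CYP1A1 promoter, chr15:74725479-74725778, minus strand: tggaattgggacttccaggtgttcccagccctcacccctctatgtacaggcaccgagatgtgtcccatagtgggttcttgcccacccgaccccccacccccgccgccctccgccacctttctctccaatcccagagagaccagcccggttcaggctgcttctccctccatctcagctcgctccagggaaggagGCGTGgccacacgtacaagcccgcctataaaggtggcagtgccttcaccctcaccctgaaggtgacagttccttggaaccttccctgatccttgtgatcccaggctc
NQO1 promoter, chr16:69726511-69726810, minus strand: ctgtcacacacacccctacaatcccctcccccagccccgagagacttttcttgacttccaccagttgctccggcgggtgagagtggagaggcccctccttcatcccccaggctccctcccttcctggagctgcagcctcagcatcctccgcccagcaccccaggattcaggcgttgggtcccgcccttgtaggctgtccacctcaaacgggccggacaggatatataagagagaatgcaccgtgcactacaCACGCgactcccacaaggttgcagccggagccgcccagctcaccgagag
OCA2 promoter, chr15:28099266-28099565, minus strand: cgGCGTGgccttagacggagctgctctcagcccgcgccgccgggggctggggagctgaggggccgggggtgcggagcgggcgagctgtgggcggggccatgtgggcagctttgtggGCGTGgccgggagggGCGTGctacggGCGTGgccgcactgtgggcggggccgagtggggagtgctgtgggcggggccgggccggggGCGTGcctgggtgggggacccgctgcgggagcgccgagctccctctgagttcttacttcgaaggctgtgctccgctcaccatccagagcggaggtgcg
TYR promoter, chr11:89177625-89177924, plus strand: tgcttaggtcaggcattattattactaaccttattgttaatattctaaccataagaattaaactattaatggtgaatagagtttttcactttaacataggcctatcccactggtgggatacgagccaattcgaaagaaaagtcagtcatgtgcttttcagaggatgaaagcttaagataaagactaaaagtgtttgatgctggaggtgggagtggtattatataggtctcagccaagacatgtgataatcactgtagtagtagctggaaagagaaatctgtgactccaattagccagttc
The CYP1A1 and NQO1 windows held 1 match each, the OCA2 window 5 and the TYR window 0. Of 35116 RefSeq promoters, 36.5% held the letters on either strand, and of the 10188 that belong to tested genes, 50.5%. The share was 45.9% among genes called higher, 55.7% among genes called lower and 50.3% among genes not called. A match in these letters is a description and not a binding site.

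CYP1A1, a monooxygenase of xenobiotic metabolism and the classical AhR target, had 23.5 and 23.1 CPM with vehicle and 69.0 and 67.5 CPM with RSV. The replicates almost coincided in each group, and the log2 fold change was 1.55 (SE 0.12). AHR itself rose from 55.0 and 58.3 CPM to 80.2 and 80.4 CPM, a change of 0.50 (SE 0.11). TIPARP, a feedback repressor, rose by 0.35, but was not called in 2 of the 4 fits that left out a library. CYP27A1 rose by 0.30 with the same loss of calls. The partner ARNT (0.17), the repressor AHRR (0.07) and the target NQO1 (-0.02) were not called, and CYP1B1 had at most 4 counts in any of the 4 libraries. Of the 12 tested genes of the AhR list, 4 were called higher and none lower, or 2 without vehicle replicate 2 or RSV replicate 1, with a median log2 fold change of 0.13 against -0.0018 over all tested genes. The share of the AhR list that was called, 33.3%, was below the 40.7% over all tested genes. Under spike-in scaling the list median turned to -0.04 and none of its genes was called. Calls were lost in other lists too, with 0 higher among lysosome genes and 0 lower among splicing factors and cytosolic ribosomal proteins. Interferon-stimulated genes kept 1 higher, melanin synthesis genes 3 lower and integrated stress response genes 7 higher. Of the 8 AhR target genes that the study averaged as its α-signature, 6 were tested, with 3 higher (INHBA, RUNX2 and PMAIP1) and LRRC49 lower.

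Pigmentation genes were lower with RSV. TYRP1, a melanosomal enzyme located at chr9:12685439-12710285 of GRCh37, had 5948 and 5511 CPM with vehicle and 1752 and 2170 CPM with RSV. The groups were far apart, and the log2 fold change was -1.55 (SE 0.11, edgeR adjusted p = 4.27e-08). Of the 13 tested melanin synthesis genes, all of them called, 11 were lower and 2 higher, with a median of -0.61. SLC24A5, an ion exchanger of the melanosome, fell by 1.32, OCA2, a melanosomal anion channel, by 1.27, SLC45A2 by 0.81, and TYR, the rate-limiting enzyme, by 0.61 on the log2 scale. PMEL, the fibril protein, fell by 0.45 and MLANA by 0.52. The exceptions were GPNMB (0.64) and CTNS (0.46), whose products are also found in lysosomes. Of these 13 genes, 12 were called in every fit that left out a library, and the median then stayed between -0.74 and -0.47.

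MITF and SOX10, which act above these genes, were lower too. MITF, the master regulator of the lineage, had 1197 and 939 CPM with vehicle and 457 and 633 CPM with RSV, without overlap, a log2 fold change of -0.97 (SE 0.15). SOX10, which activates MITF, had 746 and 691 CPM with vehicle and 441 and 390.2 CPM with RSV, a change of -0.79 (SE 0.09). TFAP2A, a neural crest factor, fell by 1.36 on the log2 scale, EDNRB by 0.34 and ZEB2 by 0.55, while LEF1 rose by 0.26. The call of LEF1 was lost in each of the 4 fits that left out a library, and that of EDNRB in 2. PAX3, KIT, IRF4 and CITED1 were not called. In all, 6 of 11 tested melanocyte regulators were lower and 1 higher, with a median of -0.34. Melanosome transport genes followed with 10 of 20 lower and 2 higher (median -0.30), among them MYO5A, the myosin that carries melanosomes along actin, at -1.20. AP3B1, an adaptor subunit of cargo sorting, was at -0.82.

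Of 15 markers of dedifferentiated melanoma cells, 11 were tested, with 5 higher and 2 lower. Of the higher ones, FOSL1, NGFR and ZEB1 were low in level. FOSL1, an AP-1 subunit, went from 2.18 and 1.94 CPM to 9.95 and 5.57 CPM. NGFR had 0.405 and 0 CPM with vehicle and 1.75 and 1.79 with RSV, and ZEB1 had 0.202 and 0.0405 CPM with vehicle and 1.33 and 1.16 with RSV. TNC, tenascin C, rose by 0.99, and TEAD4 (-0.42) and TCF4 (-0.84) were lower. The call of TNC was lost in each of the 4 fits that left out a library, those of TEAD4 and TCF4 in 2 each, and all of them in DESeq2. AXL had at most 2 counts in any of the 4 libraries and was not tested. The list median of 1.00 was 0.42 without RSV replicate 1, 1.56 without RSV replicate 2, and -0.38 relative to all tested genes when at least 10 counts were required in every library. Of the 6 BRAF inhibitor resistance genes that the study averaged, 4 were tested and ZEB1 and ITGA1 (0.53) were higher. The ITGA1 call was lost in 3 of the 4 fits that left out a library and in DESeq2.

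Genes of mitosis were lower with RSV. PLK1, a kinase of mitotic entry and spindle assembly, had 125 and 154 CPM with vehicle and 42.1 and 42.6 CPM with RSV. The groups were apart, and the log2 fold change was -1.72 (SE 0.11, edgeR adjusted p = 7.81e-09). Of 46 mitosis genes, 27 were lower and none higher, with a median of -0.33, and 17 were lower without RSV replicate 1. The kinesins CENPE (-1.34) and KIF14 (-1.24) were next. Of 47 DNA replication genes, 13 were higher and 10 lower, 48.9% in all against 40.7% of all tested genes. The split was 8 and 10 without vehicle replicate 1 and 18 and 3 without vehicle replicate 2. The median was 0.10, which turned to -0.06 under spike-in scaling and to -0.0027 without vehicle replicate 1. TK1, thymidine kinase of nucleotide salvage, rose by 1.02, CLSPN by 0.85 and RRM2, a ribonucleotide reductase subunit, by 0.56. POLA1, the catalytic subunit of DNA polymerase α, fell by 0.93. RRM1 (0.08) and RRM2B (-0.05) were not called. Homologous recombination and Fanconi genes were mostly not called, with 6 of 31 higher, among them RAD51C (0.65) and BRCA2 (0.52), and 1 lower, FANCF (-0.93). Only 2 were higher without vehicle replicate 1 or without RSV replicate 2, and BRCA2 was not called in either fit.

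Inhibitors of cyclin-dependent kinases did not move together, since CDKN2B, CDKN1A and CDKN2C (0.42) were higher, CDKN1B was lower, and CDKN1C, CDKN2A and CDKN2D were not called. CDKN2B, an inhibitor of CDK4 and CDK6, had 4.50 and 4.57 CPM with vehicle and 40.2 and 32.4 CPM with RSV. The groups were far apart, with a log2 fold change of 2.99 (SE 0.17). CDKN1A, an inhibitor induced by p53, had 1 count in each vehicle library and 23 and 17 counts with RSV, and was at least 8.34-fold higher. CDKN1B was lower (-0.96), with 105 CPM in vehicle replicate 1 and 54.2 in vehicle replicate 2. Its call was lost in 3 of the 4 fits that left out a library, where its change lay between -1.36 and -0.42. CCND1, the cyclin of G1, fell from 644 and 667 CPM to 393 and 403 CPM, a change of -0.72 (SE 0.08), and its partner CDK6 was at -0.79. Among 15 tested G1 genes 4 were higher and 5 lower, or 3 lower without either RSV library. In the E2F list 2 of 12 were higher, E2F2 (0.75) and E2F1 (0.49), and 3 lower. The share called was 41.7%, close to the 40.7% over all genes, and E2F1 was not called without vehicle replicate 1 or RSV replicate 1. Of 31 tested p53 targets, 13 were higher and none lower, with a median of 0.28 that was 0.17 without vehicle replicate 1. The share of p53 targets called was 41.9%, again close to the 40.7% over all genes. TP53I3 went from 0.455 and 0.607 CPM to 7.84 and 7.25 CPM, and GADD45A, a growth arrest gene, from 33.4 and 23.2 CPM to 99.7 and 70.2 CPM. MDM2 (0.11) and RRM2B were not called. Of 69 replication-dependent histone genes 25 were tested, with 10 higher and 1 lower (median 0.93), and 6 higher without RSV replicate 1. Of these tested histone genes 44% were called, against 40.7% of all tested genes. Their mRNA mostly lacks a poly(A) tail, so mRNA libraries hold few of their reads, and near-identical copies such as HIST2H4A and HIST2H4B cannot be told apart.

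Genes of the integrated stress response, which ATF4 activates when translation initiation is restrained, rose. SESN2, a sestrin that restrains mTORC1, went from 14.1 and 14.0 CPM to 73.5 and 42.8 CPM. The lower RSV library was still above both vehicle libraries, and the log2 fold change was 2.05 (SE 0.27, edgeR adjusted p = 0.000237). CHAC1, which degrades glutathione, went from 8.76 and 3.28 CPM to 53.5 and 30.2 CPM, and NUPR1 from 15.7 and 10.1 CPM to 65.8 and 40.1 CPM. In these genes RSV replicate 1 was the higher of the RSV libraries. Of 24 tested genes of the integrated stress response, 15 were higher and 2 lower, with a median of 0.76. DDIT3 rose by 1.65, ASNS by 1.64, PCK2 by 1.38 and TRIB3 by 1.34, the last not called without vehicle replicate 2 or RSV replicate 1. The amino acid transporters SLC7A5 (-0.37) and SLC7A1 (-0.44) were lower, though not called without vehicle replicate 1, and ATF4 mRNA was not called (0.37). CHAC1 was not called in the fit of the 4 libraries alone (adjusted p = 0.108, edgeR).

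Of 22 genes of the unfolded protein response 5 were higher and 4 lower (median -0.06), together 40.9%, which is close to the share over all genes. XBP1 rose by 0.87 and HERPUD1 by 0.67, and SDF2L1 fell by 0.67 on the log2 scale, a call lost in 2 of the 4 fits that left out a library. Of 14 heat shock genes 3 were higher, BAG3 (0.85), DNAJB1 (0.56) and DNAJA1 (0.55), and 3 lower, HSPD1 (-0.59), HSPE1 (-0.51) and HSP90AB1 (-0.55). Together these are 42.9%, again close to the 40.7% over all genes, and DNAJA1 was not called without vehicle replicate 1 or RSV replicate 2. In the NRF2 list, which holds antioxidant genes and also KEAP1 and NFE2L2, 11 of 22 were higher and 4 lower (median 0.26). HMOX1, heme oxygenase, went from 29.0 and 29.3 CPM to 75.4 and 51.0 CPM. GCLM, a subunit of the glutathione synthesis enzyme, rose by 0.99, KEAP1 by 1.13 and FTL, ferritin light chain, by 0.89. TXN (-0.59), ABCC1 (-0.77), TKT (-0.42) and ME1 (-0.44) were lower, ME1 with its call lost in 3 of the 4 fits, and NFE2L2, which encodes NRF2, was not called (-0.05). Of the metallothionein list MT2A (1.66) and the zinc exporter SLC30A1 (1.58) were higher among 4 tested genes.

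Lysosomal genes rose. SQSTM1, the autophagy receptor p62, had 214 and 282 CPM with vehicle and 722 and 619 CPM with RSV, a log2 fold change of 1.44 (SE 0.11) without overlap. Of 35 lysosome and autophagy genes 20 were higher and 1 lower, with a median of 0.32. The sialidase NEU1 rose by 1.26. Of 45 tested proteasome genes, 9 were higher and 5 lower, with a median of 0.04, which is near that of all genes. Without vehicle replicate 1, 3 were higher, and without vehicle replicate 2, 1 was lower.

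Interferon-stimulated and inflammatory genes rose, most of them from low levels. IRF7, a transcription factor of the interferon response, had 0.152 and 0.243 CPM with vehicle and 4.70 and 2.42 CPM with RSV. The groups did not overlap, and the log2 fold change was 4.08 (SE 0.44, edgeR adjusted p = 1.65e-06). Of 29 tested interferon-stimulated genes 19 were higher and none lower, with a median of 0.71. IRF1 rose by 1.65, OAS1, a sensor of double-stranded RNA, by 1.60, IFIT3 by 1.46 and STAT2 by 1.04, while MX1 (-0.47) was not called. IL8, a chemokine, went from 0.304 and 0.688 CPM to 9.10 and 4.47 CPM. RELB, a subunit of NF-kB, went from 2.58 and 2.71 CPM to 16.2 and 9.04 CPM. Of 25 NF-kB and cytokine genes 18 were tested, with 10 higher and none lower (median 1.04), and NFKBIA, the feedback inhibitor, at 1.19. A gene near 0 with vehicle that passes the filter through libraries with RSV can only be called higher. The counts and medians of both lists are therefore a description, as are those of other lists with members near 0 with vehicle. In the MHC class I list 6 of 16 were higher, among them HLA-B (1.07), HLA-E (1.03) and B2M (0.45), and none lower. The share called there, 37.5%, was below the 40.7% over all tested genes. The leukocyte markers LYZ and CD68, given above, moved in the same direction at no more than 49 counts in a library, and their part in these results was not tested. PTPRC, CD3E and LST1 did not pass the filter on low counts.

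Glycolysis genes were lower with RSV. LDHA, lactate dehydrogenase, had 1794 and 1210 CPM with vehicle and 444 and 495 CPM with RSV, a log2 fold change of -1.68 (SE 0.14, edgeR adjusted p = 4.96e-07). The groups did not overlap, although vehicle replicate 1 was the higher. Of 25 tested genes 16 were lower and 1 higher, with a median of -0.52. In PDK1 and in the glucose transporter SLC2A1 vehicle replicate 1 stood apart. PDK1 had 101 and 36.7 CPM with vehicle and 18.4 and 15.1 with RSV, and SLC2A1 had 1181 and 484 CPM with vehicle and 401 and 309 with RSV. Neither was called in the fit of the 4 libraries alone. Genes of the hypoxia list were higher in vehicle replicate 1 than in replicate 2 by a median of 0.97 on the log2 scale. The glycolysis median was -0.39 without vehicle replicate 1, with 15 lower and 4 higher. The hypoxia median of -0.28 turned to 0.19 without it, so that no direction can be given. In that list 3 of 16 were lower and 2 higher, EPAS1 (1.12) and NDRG1 (1.14), the latter not called without RSV replicate 1. EPAS1 had 99.5 and 103 CPM with vehicle and 219 and 221 CPM with RSV, with close replicates in both groups.

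PPARGC1A, the coactivator PGC1α of mitochondrial biogenesis, had 481 and 356 CPM with vehicle and 156 and 213 CPM with RSV, without overlap, a log2 fold change of -1.18 (SE 0.16). Of 12 tested regulators of mitochondrial biogenesis 7 were lower and 1, POLG, higher, with a median of -0.45. The lower genes numbered 3 without RSV replicate 1 and 4 without vehicle replicate 2, and 2 of the 8 calls held in every fit that left out a library. Of 78 nuclear genes of the respiratory chain 27 were lower and 4 higher (median -0.21), or 2 higher without vehicle replicate 1 and 1 without RSV replicate 1, with ATP5G1 at -0.82 and NDUFS4 at -0.80. The share of these nuclear genes that was called, 39.7%, was close to the 40.7% over all tested genes. Of the 13 genes of the mitochondrial genome, 2 were higher and none lower, 15.4% in all. These were MT-ND5 (1.06), with 1328 and 1659 CPM with vehicle and 2786 and 3427 with RSV, and MT-CO1 (0.52). The deacetylase SIRT1 had 25.8 and 27.7 CPM with vehicle and 33.7 and 33.0 CPM with RSV, a change of 0.32 that was not called in any of the 4 fits that left out a library. SIRT7 rose by 0.79, NAMPT, of NAD synthesis, fell by 0.63 on the log2 scale, and the other 5 genes of the sirtuin list were not called.

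In lipid metabolism, 9 of 15 tested fatty acid oxidation genes were higher and 1 lower (median 0.36). ACADVL, which starts oxidation of long chains, went from 66.2 and 61.3 CPM to 157 and 129 CPM, CPT2 rose by 0.64 and PDK4 by 0.80, the latter not called without either RSV library. Of 16 tested fatty acid synthesis genes 6 were lower and 3 higher (median -0.31, or -0.12 without vehicle replicate 2), with the elongase ELOVL6 at -1.11 and the acetate-activating ACSS2 at 0.86. Of 25 cholesterol synthesis genes 7 were higher and none lower (median 0.17, and 0.0014 under spike-in scaling). The share called there, 28%, was below the 40.7% over all tested genes. Leaving out vehicle replicate 1 gave a median of 0.08 and leaving out vehicle replicate 2 gave 0.34. TM7SF2, a sterol reductase, went from 5.67 and 6.96 CPM to 26.0 and 21.4 CPM. In the cholesterol export list 4 of 6 tested were higher, among them NR1H3, the liver X receptor α, at 1.36 and the apolipoprotein gene APOE at 1.14.

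Most splicing factors were lower with RSV. Of 30 tested, 23 were lower and none higher, with a median of -0.47, and 20 of these calls held in every fit that left out a library. HNRNPA2B1 had 1485 and 1473 CPM with vehicle and 696 and 827 CPM with RSV, without overlap, a log2 fold change of -0.96 (SE 0.09). SRSF1 was at -0.80 and PTBP2 at -1.24. Of 83 tested cytosolic ribosomal protein genes 47 were lower and none higher (median -0.28), with RPSA at -0.68 and RPL7 at -0.60. Of 75 tested mitochondrial ribosomal protein genes 32 were lower and 3 higher (median -0.21), with MRPL3 at -0.94. The lower genes were 15 without vehicle replicate 2, and 12 of the 35 calls held in every fit that left out a library. In ribosome biogenesis 12 of 26 were lower and 2 higher (median -0.31, or -0.16 without vehicle replicate 2). FBL, the methyltransferase of ribosomal RNA, went from 120.0 and 118 CPM to 60.6 and 58.0 CPM, and UTP20 was at -1.09. Aminoacyl-tRNA synthetases divided, with 6 of 20 higher and 6 lower. AARS (0.68), SARS (0.51), WARS (0.45), CARS (0.42), GARS (0.40) and HARS (0.39) were higher. VARS (-1.08), DARS (-0.83), FARSB (-0.64), KARS (-0.41), QARS (-0.35) and IARS (-0.27) were lower. Of these, GARS and IARS lost their calls in 2 of the 4 fits that left out a library and WARS in 1.

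**Figure D3:**
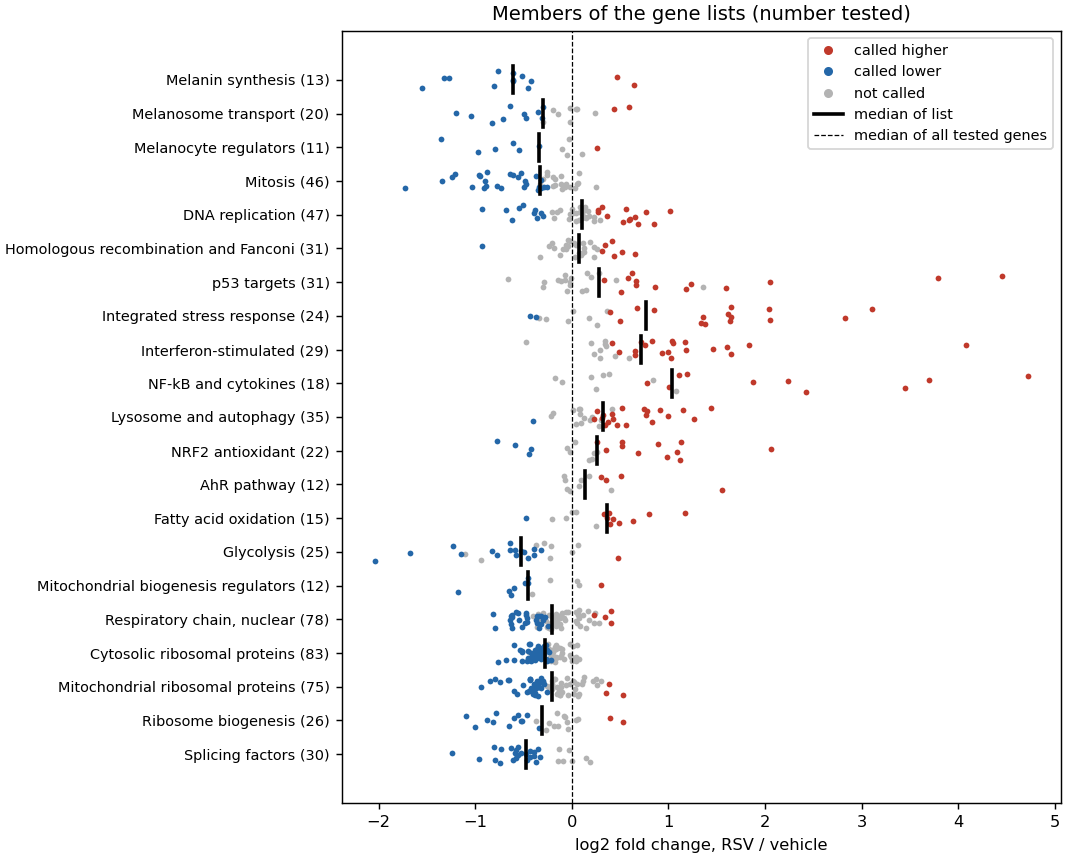
Log2 fold change of RSV over vehicle (x axis) for each tested member of 21 gene lists (y axis, with the number tested), with red for called higher, blue for called lower and grey for not called. Black bars are list medians and the dashed line is the median of all tested genes; melanin synthesis, glycolysis and splicing factors lie to the left, and integrated stress response, interferon-stimulated and NF-kB genes to the right.

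Of 23 tested immediate early genes 10 were higher, 3 lower and 10 not called (median 0.59), and 6 were higher without RSV replicate 1. The lower genes were MYC, NR4A3 (-1.29) and KLF6 (-0.34), the last with its call lost in 2 of the 4 fits that left out a library. Both pairs of replicates differed in this list, by a median of 0.70 between the vehicle libraries and 0.68 between the RSV libraries. Without vehicle replicate 1 its median was 0.99, and without vehicle replicate 2 it was 0.27. Of 17 tested ERK feedback genes and ETS factors 5 were higher and 3 lower (median -0.09). The phosphatase DUSP6 rose from 111 and 98.5 CPM to 191 and 155 CPM, a change of 0.72, and DUSP5 by 1.73, while ETV4 fell by 0.77 on the log2 scale. SPRY2, SPRY4 and ETV5 were not called. Receptor tyrosine kinases had 6 of 18 tested higher, or 3 without vehicle replicate 2, among them EPHA2 (1.18), and 3 lower, MET (-0.72), IGF1R (-0.61) and INSR (-0.54). In the BCL2 family 7 of 16 tested were higher and none lower. The share called, 43.8%, was close to the 40.7% over all tested genes. Among the higher ones were the BH3-only genes PMAIP1 (1.67), HRK (1.00) and BMF (0.77), and MCL1 (0.35). The change of MCL1 lay between 0.26 and 0.43 when a library was left out.

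In the TGF-beta and BMP list 9 of 20 were higher and 3 lower (median 0.49), and in the YAP/TEAD list 4 of 16 tested were higher, with ANKRD1 at 3.13 and CTGF at 0.78, and 3 lower, and CTGF was not called without vehicle replicate 2 or RSV replicate 1. Collagen, laminin and integrin genes had 10 of 28 tested higher and 5 lower, with LAMA4 at 1.63 and ITGA5 at 1.90. Of 17 tested Wnt genes 5 were higher and 2 lower, with 3 higher without vehicle replicate 1 or RSV replicate 1. The share called, 41.2% in the Wnt list and 43.8% in the YAP/TEAD list, was close to the 40.7% over all genes. CTNNB1, β-catenin, fell from 1842 and 1870 CPM to 973 and 1079 CPM, a change of -0.86 (SE 0.08). Notch genes had 5 of 15 tested higher and 5 lower, and only 1 of these 10 calls held in every fit that left out a library. Of 20 circadian clock genes 8 were lower, among them RORB (-1.47), PER3 (-0.72) and NPAS2 (-0.69), and 3 higher, ARNTL2 (1.11), NFIL3 (0.84) and CRY2 (0.82). Of 18 cancer-testis antigens 8 were lower and 4 higher, or 2 higher without vehicle replicate 1 or RSV replicate 2, with MAGEA4 at -1.35 and MAGEA10 at 1.33, a family of similar sequences between which counting can be uncertain. Chromatin and DNA methylation genes had 3 of 25 higher and 5 lower, with TET1 at -0.83, not called without vehicle replicate 1. The estrogen receptor list had 3 of 8 tested higher, GPER1 (3.94), XBP1 (0.87) and CTSD (0.76), and CCND1 lower.

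Long genes were more often lower. Of protein-coding genes in the quintile with the longest genomic span (median 176 kb), 36.9% were lower and 13.8% higher, with a median log2 fold change of -0.19. In the quintile with the shortest span (median 6.002 kb), 15.1% were lower and 25.9% higher, with a median of 0.11. The gene's mean level moved with the direction too. In the lowest quintile 30.1% were higher and 5.97% lower, and in the highest quintile 18.1% were higher and 36.3% lower. A low gene that passes the filter through the RSV libraries alone can only be called higher, so the lowest quintile is a description.

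**Figure D4:**
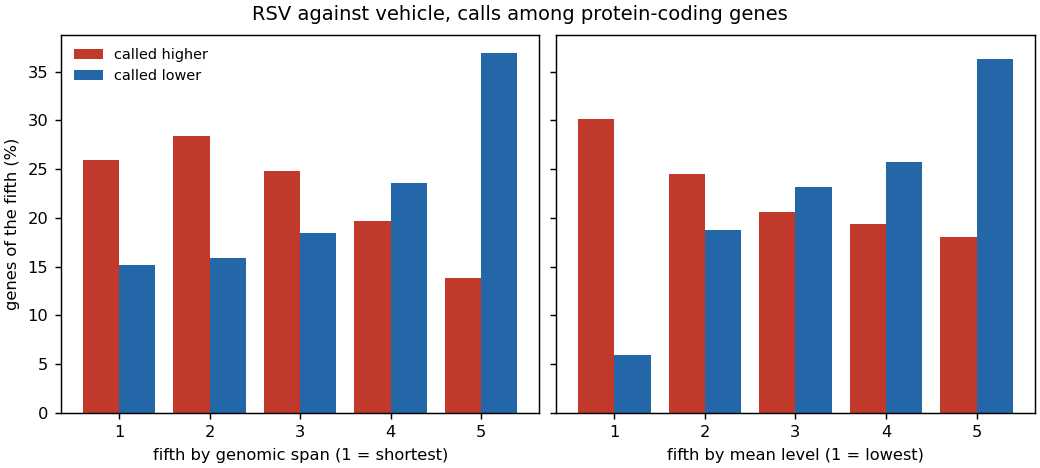
Share of protein-coding genes called higher (red) or lower (blue) with RSV, in percent of each quintile (y axis), by genomic span (left) and by mean level (right). The share called lower is 36.9% in the longest quintile and 15.1% in the shortest.

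To see whether the RSV effect was the same beside the other ligands, RSV+TCDD was compared with TCDD and RSV+Vem with Vem, neither of which shares a library with RSV against vehicle. RSV+TCDD differed from TCDD in 6057 genes (37.7%), with 2989 higher (18.6%) and 3068 lower (19.1%), and RSV+Vem from Vem in 6088 (37.9%), with 3079 higher (19.1%) and 3009 lower (18.7%). Of the 3295 genes higher with RSV alone, 2279 (69.2%) were also higher beside TCDD, which is 76.2% of the genes higher there, and 1380 (41.9%) were higher beside Vem, which is 44.8% of those. Of the 3243 lower genes, 2295 (70.8%) were lower beside TCDD and 1371 (42.3%) beside Vem. In all, 1096 genes were higher and 1119 lower in the 3 comparisons. Over the 16080 genes, which do not count as replicates, Pearson's r between the log2 fold changes of RSV alone and beside TCDD was 0.79, and between those of RSV alone and beside Vem 0.53. The spike-ins moved the median over all genes by -0.70 in RSV+TCDD against TCDD.

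The difference between the effects was tested as an interaction, the RSV effect beside the ligand less the RSV effect alone. With TCDD it was called in 24 genes (0.149%), 2 of them higher (0.0124%) and 22 lower (0.137%), with CYP1A1 the lowest. The log2 fold change of CYP1A1 was 1.55 for RSV alone and -1.77 for RSV+TCDD over TCDD. The interaction was -3.32 (SE 0.17, edgeR adjusted p = 1.50e-09). By the sample labels RSV+TCDD had 1 nM TCDD and TCDD alone 10 nM. If the labels hold, an effect of RSV and one of the TCDD dose cannot be told apart in this comparison. NQO1 went from -0.02 to -1.05, an interaction of -1.03. With Vem the interaction was called in 3656 genes (22.7%), 1905 of them higher (11.8%) and 1751 lower (10.9%). In mitosis genes all 46 interactions were called higher, with 43 called higher there and a median of 1.10 against -0.33 for RSV alone. DNA replication genes went from a median of 0.10 to 0.99, with 44 of 47 interactions called higher, and homologous recombination genes from 0.07 to 1.11. Lysosome genes went the other way, from a median of 0.32 to -0.24, with 24 of 35 interactions called lower, and fatty acid oxidation genes from 0.36 to -0.31, with 10 of 15 called lower. MYC fell by 2.12 on the log2 scale with RSV alone and was not called beside Vem (0.15), an interaction of 2.27. SPRY4, of ERK feedback, was at 0.16 alone and 3.55 beside Vem. It had 55.6 and 62.7 CPM with vehicle, 1.67 and 0.615 with Vem, and 13.8 and 13.7 with RSV+Vem. Its level with RSV+Vem thus stayed below that with vehicle. All changes beside Vem, the list medians included, are relative to Vem alone and not to vehicle. Melanin synthesis genes were lower in each comparison, at medians of -0.61, -0.53 beside TCDD and -0.83 beside Vem, and stress response genes higher, at 0.76, 0.73 and 1.26. SLAMF7 had 0.0451 and 0.0735 CPM with TCDD and 14.1 and 14.2 with RSV+TCDD, and 0.417 and 0 CPM with Vem and 5.37 and 4.05 with RSV+Vem. Neither of its interactions was called.

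**Figure D5:**
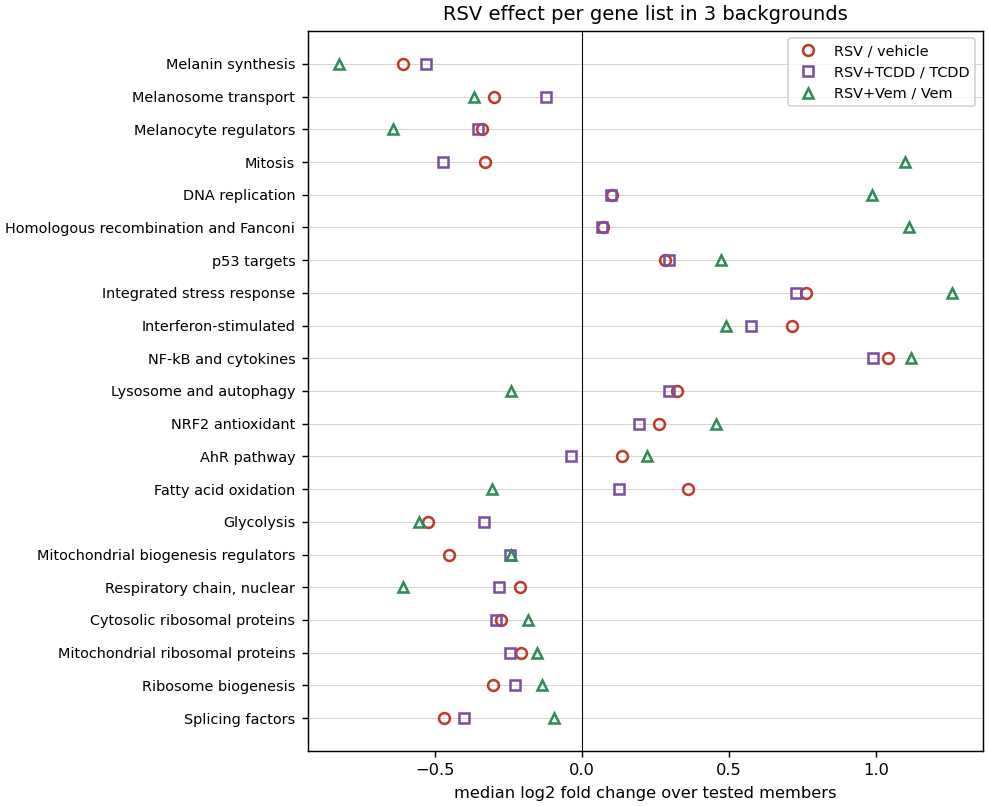
Median log2 fold change over the tested members of 21 gene lists (y axis) for RSV over vehicle (circles), RSV+TCDD over TCDD (squares) and RSV+Vem over Vem (triangles), on the x axis. Mitosis, DNA replication and homologous recombination lie near or below 0 without Vem and near 1 beside it, while melanin synthesis lies below 0 in all 3.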

How the data were processed

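RNA of 501Mel cells was sequenced in 12 libraries, 2 per group. The authors made stranded mRNA libraries, aligned read pairs to hg19 with STAR 2.4.0a, and assigned them to gene symbols by featureCounts (Subread 1.5.0-p3). The deposited values are raw counts, without normalization. In this work 96 control sequences, of them 92 ERCC spike-ins, were removed, filterByExpr left 16080 genes, and all 12 libraries were modelled by group in edgeR 4.0.16 (robust quasi-likelihood, TMM factors, R 4.3.3). RSV was compared with vehicle, RSV+TCDD with TCDD and RSV+Vem with Vem, and interactions were tested in the same model, with Benjamini-Hochberg adjustment and a threshold of 0.05. The common biological coefficient of variation was 0.0915. Permuting 2 against 2 libraries exactly could not reach it for any gene. PCR copies were not removed, so counting error is a lower limit, and a group with at most 3 counts in each library gives a fold only as a bound.

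The 58 gene lists were described by counts of calls and medians. Genes named are the 10 largest increases and decreases among called genes whose groups did not overlap, with 50 or more counts on average in the higher group, up to 3 such called members per list, fixed genes of AhR, pigment and cell cycle biology, and members of short lists. Others, among them the further members of longer lists and the interaction examples, were chosen after their values were seen. The comparison and lists were chosen with earlier results of these data known. Positions are from GENCODE on GRCh37, and the annotation release that was counted is not given in the sources used here. Pairing was checked by the correlation of replicate differences, -0.04 between vehicle and RSV and between -0.12 and 0.15 over all pairs of groups, with RSV and RSV+TCDD and RSV and RSV+Vem at 0.15 and RSV+Vem and RSV+TCDD at 0.12. No label ties the numbers and not every pair exceeded 0.1, so no block was used. Alternatives were DESeq2 1.42.0, RLE factors, ERCC scaling, no filter, a minimum of 10 counts per library, a replicate block, a test against an absolute log2 fold change of 1, only the libraries compared, and each library left out in turn. On simulated data for RSV against vehicle with 200 of 16080 genes changed, edgeR called 104 of 106 genes changed by a log2 fold of 1, 94 of 94 changed by 2, and 12 unchanged genes. In the data 6538 genes were called, with median changes of 0.74 (higher) and -0.58 (lower). The simulation therefore does not measure how reliable these calls are. Some genes are not reported here. Figures were drawn with matplotlib 3.10.9.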

Additional observations from a re-analysis of the deposited data

Results flagged for a closer look

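The RSV effect differed beside the other ligands by the test of the interaction. With TCDD, whose dose on the labels also differed between the groups compared, 24 genes passed it, and with Vem 3656. Among the 10 largest decreases with RSV alone, 3 of the 9 reported here differed beside Vem, against 22.7% of all tested genes. With so few genes these shares cannot be compared. The decreases were picked by the RSV effect alone, which the interaction subtracts, so the choice itself favours a positive interaction. The interaction was 1.79 for SNORD17 (adjusted p = 0.038), 1.09 for RP11-418J17.3 (adjusted p = 0.034) and 2.27 for MYC (adjusted p = 7.18e-07) in edgeR with Benjamini-Hochberg adjustment. The fitted RSV effect beside Vem was -0.46, -1.05 and 0.15 in the same order, and of these that of RP11-418J17.3 was called. None of the 10 largest increases passed either interaction test.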

How the results depend on the processing

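Of the alternatives run, RLE factors, DESeq2, both filters, the fit to the libraries compared and leaving out each library kept the count of genes changed by RSV within 1.5 times 6538. Spike-in scaling gave 369 (256 higher, 113 lower) and the test against an absolute log2 fold change of 1 gave 342 (291 higher, 51 lower). For RSV+TCDD against TCDD these gave 1912 and 305, for RSV+Vem against Vem 389 and 372, and for the interaction with Vem 8 and 120. RSV+TCDD against TCDD gave between 3526 and 5027 genes when a library was left out, the fewest without TCDD replicate 1. The interaction with TCDD, 24 genes, was the least stable, with 63 under DESeq2, 1 under spike-in scaling, 170 without a filter, 15 with a minimum of 10 counts per library, 1 with the fold threshold, 7 in the libraries compared and between 4 and 179 when a library was left out, the fewest without TCDD replicate 1 and the most without vehicle replicate 2. Replicate numbers marked no known pairing, and with a replicate block 6693 genes were called with RSV. Of 53 list medians relative to all genes, 30 moved by more than the spread between replicates without vehicle replicate 1, 22 without vehicle replicate 2, 17 without RSV replicate 1 and 18 without RSV replicate 2, 13 with the minimum of 10 counts, 8 without a filter and 3 in the libraries compared, besides those that changed sign. That of the dedifferentiation list turned to -0.38 and that of receptor tyrosine kinases to -0.029 with the minimum of 10 counts, and the latter to -0.022 in the libraries compared. Leaving out a library moved the median of the E2F list between -0.13 and 0.027, of the unfolded protein response between -0.13 and 0.044, of heat shock between -0.041 and 0.15, of ERK feedback between -0.13 and 0.017 and of the chromatin list between -0.12 and 0.0035. It moved the log2 fold change of ADM between -0.87 and 0.96, of DDIT4 between -1.13 and 1.51 and of HSPA8 between -0.47 and 0.38. The positive ends of ADM and DDIT4 were those without vehicle replicate 1. The cause was not tested.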
